A study of Homo sapiens with 14 samples.

Results

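In T47D cells given progesterone (P4), 7012 progesterone receptor (PR) regions lay over a POLR3A region that was present without hormone, and overlapped no PR region found without hormone. They made up 6.29% of the 111515 PR regions called under P4 on chromosomes 1 to 22 and X. A region was counted when it shared 1 bp or more with a POLR3A region of the vehicle-treated cells and none with a PR region of those cells, so the members were selected on values of the PR P4, PR vehicle and POLR3A vehicle lists. PR P4 regions without a PR vehicle region were 74.2% of the list, and those with a POLR3A vehicle region were 13.6%. In what follows these 7012 are called gained PR regions at POLR3A. They are set beside 75720 gained PR regions with no POLR3A in vehicle and 8129 PR regions found under both treatments with POLR3A in vehicle.

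T47D is an established breast cancer line positive for estrogen and progesterone receptors. The cells received ethanol vehicle or P4 for 1 h, and chromatin was precipitated with an antibody to PR (PR Ab-8) or to POLR3A. Each antibody and treatment had 3 replicates, and each treatment had 1 pooled input, giving 14 libraries. The files hold 1 region list per antibody and treatment, so no spread between replicates could be measured and no test over samples was possible. The lists held 38933 PR regions in vehicle, 111515 PR regions under P4, 29161 POLR3A regions in vehicle and 47904 under P4. Read depth was not given in the files used here. A PR region absent from the vehicle list may therefore be one that fell below the calling threshold there, and gain and depth cannot be told apart. With both PR lists cut to their 38933 highest regions, 1154 regions met the rule.

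PR is a steroid receptor that binds DNA as a hormone-activated transcription factor, classically at palindromic response elements that are often far from promoters, and it also reaches chromatin through other factors. POLR3A is the largest catalytic subunit of RNA polymerase III, which transcribes tRNA genes, 5S ribosomal RNA, U6 small nuclear RNA, 7SK and other short noncoding RNAs. Signal for RNA polymerase III is also known at promoters served by RNA polymerase II. In breast epithelium PR drives proliferative programs that place a demand on protein synthesis.

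Many of the gained PR regions at POLR3A lay at promoters of protein-coding genes, and 6 such promoters are printed here to show the sequence under both summits. Each run is the 250 bases before the start site, 5′ to 3′ on the gene's strand, from RefSeq (GRCh38.p14). They were chosen after their values were seen, as those with the highest PR value among 70 windows that held both the PR P4 summit and the POLR3A vehicle summit, were the outermost start of the gene and had no other gene across them. Capitals mark matches to the motifs listed further on.
FAM219B, chr15:74906852-74907101, minus strand: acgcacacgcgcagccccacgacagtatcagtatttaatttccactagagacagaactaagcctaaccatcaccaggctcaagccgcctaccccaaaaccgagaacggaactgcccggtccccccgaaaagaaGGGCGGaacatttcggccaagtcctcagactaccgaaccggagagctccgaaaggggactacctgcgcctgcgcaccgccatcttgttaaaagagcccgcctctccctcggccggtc
RNF43, chr17:58417535-58417784, minus strand: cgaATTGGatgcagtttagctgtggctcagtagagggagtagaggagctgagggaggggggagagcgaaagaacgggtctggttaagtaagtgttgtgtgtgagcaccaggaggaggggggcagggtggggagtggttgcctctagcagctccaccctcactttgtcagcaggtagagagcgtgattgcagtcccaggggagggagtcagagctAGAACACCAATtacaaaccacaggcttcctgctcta
CYCS, chr7:25125261-25125510, minus strand: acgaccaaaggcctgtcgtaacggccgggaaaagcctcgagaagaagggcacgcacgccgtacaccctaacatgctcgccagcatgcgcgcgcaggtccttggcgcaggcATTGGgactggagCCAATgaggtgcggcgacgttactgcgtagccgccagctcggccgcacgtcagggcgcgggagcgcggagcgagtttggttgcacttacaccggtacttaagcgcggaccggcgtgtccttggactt
ECPAS, chr9:111484384-111484633, minus strand: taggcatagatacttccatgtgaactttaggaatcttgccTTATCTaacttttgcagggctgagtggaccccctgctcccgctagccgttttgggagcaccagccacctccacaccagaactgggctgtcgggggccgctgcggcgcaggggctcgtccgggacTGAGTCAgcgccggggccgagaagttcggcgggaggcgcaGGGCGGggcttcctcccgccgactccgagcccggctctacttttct
VPS51, chr11:65095964-65096213, plus strand: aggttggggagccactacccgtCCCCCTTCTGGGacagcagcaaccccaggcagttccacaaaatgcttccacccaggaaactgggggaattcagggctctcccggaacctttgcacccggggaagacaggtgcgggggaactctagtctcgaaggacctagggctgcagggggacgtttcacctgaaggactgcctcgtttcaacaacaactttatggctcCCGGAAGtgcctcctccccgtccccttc
ELP2, chr18:36129649-36129898, plus strand: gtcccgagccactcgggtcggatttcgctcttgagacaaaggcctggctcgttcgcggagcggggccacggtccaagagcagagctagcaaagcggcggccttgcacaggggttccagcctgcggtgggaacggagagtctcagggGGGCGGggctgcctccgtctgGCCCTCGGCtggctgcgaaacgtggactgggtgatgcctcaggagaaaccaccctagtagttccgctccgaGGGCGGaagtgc
The windows hold few of the searched motifs in common. Sp1 letters stood in FAM219B, ECPAS and ELP2, NFY letters in RNF43 and CYCS, and an ETS match in VPS51. RNF43, which encodes a ubiquitin ligase that restrains Wnt signalling, had the only match to AGAACA, a single arm of the hormone response element. None of the 6 windows held the full palindromic element, which says only that those letters are not in these 250 bases.

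The PR values at these promoters were high while those of POLR3A were modest. The values are the authors' −log10 q, the peak caller's adjusted significance, and its fold enrichment, and they are used only to rank regions within a list. For a PR region, here and below, POLR3A under P4 means a POLR3A P4 region that overlaps that PR region. At FAM219B the PR region had a −log10 q of 82.0 and a fold of 18.2, and the POLR3A vehicle region had a −log10 q of 1.93, with no POLR3A region under P4. At CYCS, which encodes cytochrome c of the respiratory chain, PR had 20.2, POLR3A 7.17 in vehicle and 5.48 under P4. At VPS51, a subunit of a vesicle tethering complex, PR had 12.1, and POLR3A had 4.33 in vehicle and 12.1 under P4. RNF43 (PR 37.6, POLR3A vehicle 4.19), ECPAS, a proteasome adaptor (14.9 and 5.00), and ELP2, a subunit of the tRNA-modifying Elongator complex (10.5 and 1.90), had no POLR3A region under P4. In RNF43 the PR summit lay 96 bases before the start and the POLR3A summit 239 bases before it, while in ECPAS they lay 115 and 135 bases before it.

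Most of the gained PR regions at POLR3A were of modest strength. The median PR −log10 q was 4.10, with quartiles of 3.04 and 6.11 and a range of 1.31 to 82.0, and the median fold was 3.24. The median member stood at percentile 41.8 of the PR P4 list. Gained PR regions without POLR3A had a close median of 3.96, whereas PR regions present under both treatments with POLR3A had 12.4. A −log10 q of at least 10 was reached by 595 members, or 8.49% (95% Wilson interval 7.86 to 9.16), against 13.4% of gained PR regions without POLR3A. The intervals here and below cover counting error over regions only, and neighbouring regions are not independent. Members were wider than gained regions without POLR3A, with medians of 338 bp and 255 bp, and narrower than PR regions of both treatments with POLR3A, at 549 bp. A wider region has more chance to touch another, and the part of width in the choice of members was not tested.

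The POLR3A regions under the members were also modest for the most part. Their median −log10 q in vehicle was 3.54, with quartiles of 2.61 and 5.20, and their median width was 310 bp. The highest reached 621.0, at a tRNA gene. The plot of both values shows a broad cloud at low POLR3A values that holds promoters, gene bodies and intergenic regions, and a separate group at high POLR3A values that holds nearly all the tRNA genes. PR values in that second group lay within the range of those of the cloud.

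**Figure D1:**
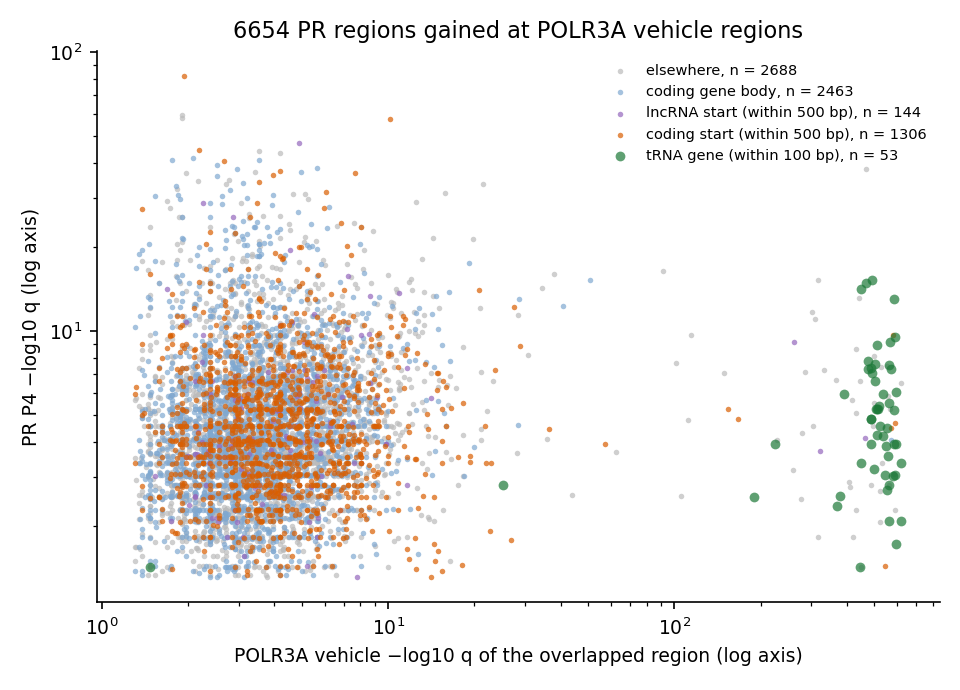
Each point is 1 of 6654 gained PR regions at POLR3A (chromosome 8 left out), with the POLR3A vehicle −log10 q of the overlapped region on the x axis and the PR P4 −log10 q on the y axis, both log axes, coloured by position. The 53 regions at tRNA genes lie mostly far to the right, around a POLR3A median of 514.0, while their PR values overlap those of the other positions.

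PR and POLR3A summits lay within 100 bp of each other in 43.5% of members. The rule requires the regions to overlap, so their widths (medians of 338 bp and 310 bp) limit the distance between summits. A short distance is therefore a description and not a result. The median distance between the PR P4 summit and the POLR3A vehicle summit was 123 bp, with quartiles of 47 and 254 bp. It was 95 bp in PR regions of both treatments with POLR3A. The PR summit fell inside the POLR3A region in 4551 members, or 64.9%, and the summits were within 50 bp of each other in 26.4%. The median shared length was 201 bp. A total of 6874 members overlapped 1 POLR3A vehicle region and 138 overlapped 2 or more.

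The 1 bp limit of the rule touched few members. Just inside it, 3 members shared 1 bp with a POLR3A region and had PR −log10 q values of 2.87 (chr1:22579233-22579412), 4.93 (chr11:118690399-118690604) and 8.41 (chr12:55020116-55020364). Just outside it, 3 gained PR regions abutted a POLR3A region and had 3.14 (chr1:143953509-143953771), 16.0 (chr1:151005863-151006301) and 1.84 (chr12:121399635-121399933). In all, 171 members shared under 20 bp with POLR3A, 5972 shared at least 100 bp, and 146 gained PR regions came within 20 bp of a POLR3A region without touching it.

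The POLR3A P4 list was not used by the rule, so it shows which PR regions also overlapped a POLR3A region called under P4. A member without one may still lie over a POLR3A vehicle region that was called again outside the PR region. Of the 7012 members, 3492 overlapped a POLR3A region under P4, or 49.8% (48.6 to 51.0), against 20.9% of all PR P4 regions. The share was 12.0% (11.7 to 12.2) in gained PR regions without POLR3A in vehicle and 76.5% (75.6 to 77.4) in PR regions of both treatments with POLR3A. The first of these differences is between regions that held POLR3A in vehicle and regions that did not, and 42% of all POLR3A vehicle regions had a POLR3A region under P4. The POLR3A P4 regions at the members had a median −log10 q of 4.01.

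Within the members, POLR3A under P4 was more frequent where either signal was higher. With the members ranked by PR −log10 q and split into 5 equal classes, the share rose from 37.2% in the lowest to 61.2% in the highest, with each class above the one before it. Ranked by POLR3A vehicle −log10 q, it rose from 37.5% to 71.3%, again at each step. At matched PR strength the members stayed above gained regions without POLR3A in vehicle. Below a PR −log10 q of 3 the shares were 38.2% and 10.6%, between 3 and 5 they were 47.9% and 13.9%, between 5 and 10 they were 59.7% and 13.0%, and from 10 upwards they were 57.3% and 8.30%.

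POLR3A regions can also be compared with each other, since each of them was called in vehicle. Of the 29161 POLR3A vehicle regions, 19750 had no PR region in vehicle. Among these, 6576 held a gained PR region, or 33.3% (32.6 to 34.0), 12325 had no PR region under P4 either, and 849 met a PR P4 region that reached a PR vehicle region nearby. With the PR lists cut to equal length 5.78% gained PR, and with all lists cut to the shortest 3.64%. Another 393 POLR3A regions had PR in vehicle and a gained PR region elsewhere along their length. POLR3A was called again under P4 in 47.6% (46.4 to 48.8) of the 6576 that gained PR and in 17.9% (17.3 to 18.6) of the 12325 that did not. The PR and POLR3A P4 lists come from cells of the same treatment.

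The POLR3A regions that gained PR were somewhat stronger and wider, with a median −log10 q of 3.53 against 3.05 and a median width of 297 bp against 249 bp, while their median folds were 3.49 and 3.47. The share that gained PR went from 26.9% in the lowest of 10 equal classes of POLR3A −log10 q to 45.2% in the highest, and from 22.1% in the narrowest of 5 classes of width to 51.0% in the widest. The difference in POLR3A under P4 was present in every class of both. In the lowest class of −log10 q POLR3A was called under P4 at 35.2% with PR gain against 11.1% without, and in the highest at 75.3% against 52.5%. In the narrowest class of width it was 35.6% against 11.6%, and in the widest 64.1% against 34.7%.

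**Figure D2:**
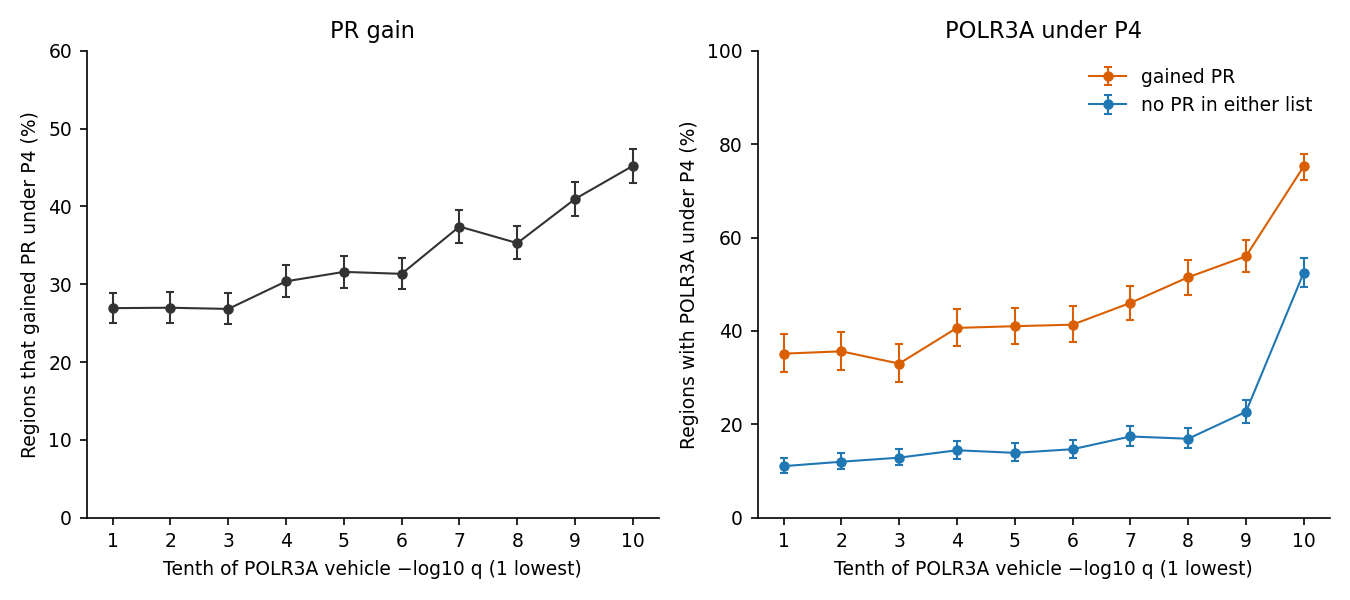
The 19750 POLR3A vehicle regions without PR in vehicle are ranked into 10 equal classes of POLR3A −log10 q (x axis, 1 lowest). The left panel gives the percentage that gained PR under P4, from 26.9% to 45.2%, and the right panel the percentage with POLR3A under P4 for regions that gained PR and regions with no PR in either list, with 95% Wilson intervals as bars; the line of regions that gained PR is the upper one in each class.

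Promoters stood out among the positions of the gained PR regions at POLR3A. Chromosome 8 is left out wherever start sites are used, because the start site table holds none there, which leaves 6654 members. The PR summit was within 500 bp of a protein-coding start in 19.7% of them (18.8 to 20.7), against 5.26% of all PR P4 regions. The share was 3.62% (3.48 to 3.75) in gained regions without POLR3A and 12.2% (11.5 to 13.0) in regions of both treatments with POLR3A. Within 1 kb of either end of a coding gene, counted on all chromosomes, lay 34.0% of members, 10.2% of gained regions without POLR3A and 24.4% of regions of both treatments with POLR3A, against 12.7% of the whole list. Between 16.5% and 22.5% of members were at a coding start in each of the 4 PR strength ranges named above, and between 3.00% and 4.11% of gained regions without POLR3A. The rule requires POLR3A, so these shares describe where POLR3A regions lie as well as where PR was gained.

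With each member put in 1 class, 1306 were at a coding start, 144 at a start of a long noncoding RNA, 53 at a tRNA gene, 2463 in the body of a coding gene and 2688 elsewhere. Median PR −log10 q differed little between these classes, at 4.35, 4.13, 4.59, 4.07 and 4.09. POLR3A under P4 was called at 59.0% of members at coding starts (56.3 to 61.6), 52.1% at noncoding RNA starts, 44.1% in gene bodies (42.2 to 46.1) and 49.1% elsewhere, and at 53 of 53 at tRNA genes. POLR3A vehicle regions at tRNA genes with no PR in either list also had it in 172 of 185, or 93.0%. Each non-tRNA class of members lay between gained regions without POLR3A and regions of both treatments with POLR3A. At coding starts, for example, those shares were 25.5% and 75.2%.

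**Figure D3:**
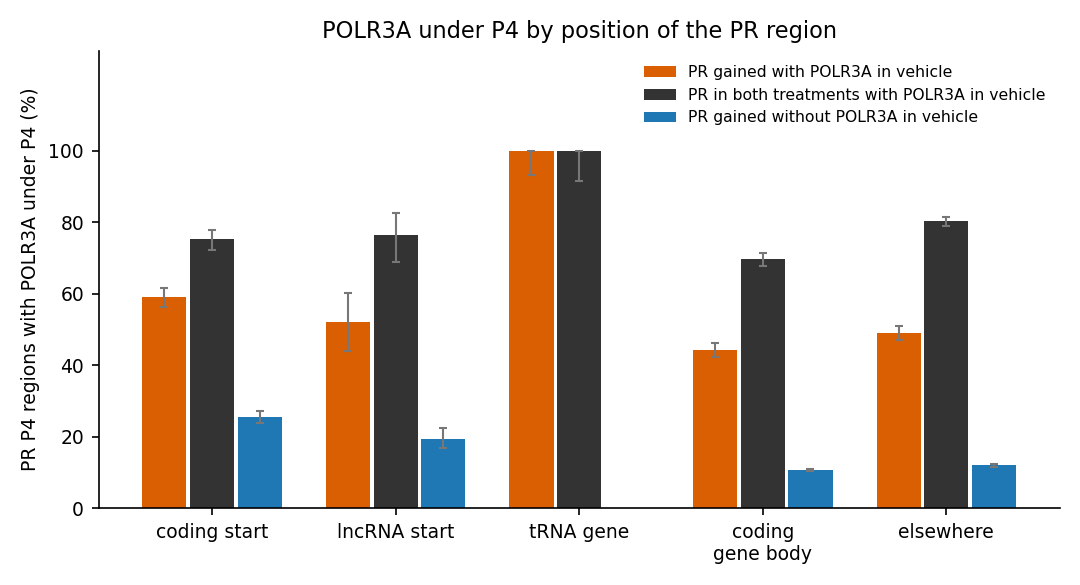
Percentage of PR P4 regions with a POLR3A region under P4 (y axis) by position of the PR region (x axis), for 3 classes of PR region, with 95% Wilson intervals as bars; chromosome 8 is left out and no region gained without POLR3A in vehicle lay at a tRNA gene. Gained PR regions at POLR3A reach 59.0% at coding starts and 44.1% in coding gene bodies, between the other classes at each position but tRNA genes, where both classes drawn are at 100%.

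The share of PR-free POLR3A regions that gained PR also varied with position. It was 47.9% (46.0 to 49.8) at coding starts, 45.4% at noncoding RNA starts, 29.6% (28.6 to 30.6) in gene bodies, 31.5% elsewhere and 22.2% (17.4 to 27.9) at tRNA genes. At coding starts POLR3A was called under P4 in 59.3% of the POLR3A regions that gained PR and in 32.5% of those with no PR. The regions at coding starts were also wider, with a median of 353 bp in those that gained PR against 286 bp in gene bodies.

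Around coding starts the POLR3A and PR summits had different profiles. The POLR3A vehicle summits of the members were most frequent in the first 100 bp after the start, which held 5.18% of them, and the POLR3A P4 summits had the same maximum at 5.54%. PR summits were spread more evenly on both sides, with 2.39% in those first 100 bp and their maximum, 3.04%, between 100 and 200 bp after the start. Of the 1306 members at coding starts, 21.4% had the PR summit within 100 bp of the start. In 1250 of them the POLR3A vehicle summit was nearest to a start of the same gene, and 33.9% of these summits lay within 100 bp of it. The second set has no limit of 500 bp on the summit, so the bases differ. The PR summits of the 1306 lay at a median of 24.5 bp after the start, with quartiles at −228 and 199 bp, and 47.8% were upstream. Gained regions without POLR3A showed no such maximum, with 0.39% in the first 100 bp.

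**Figure D4:**
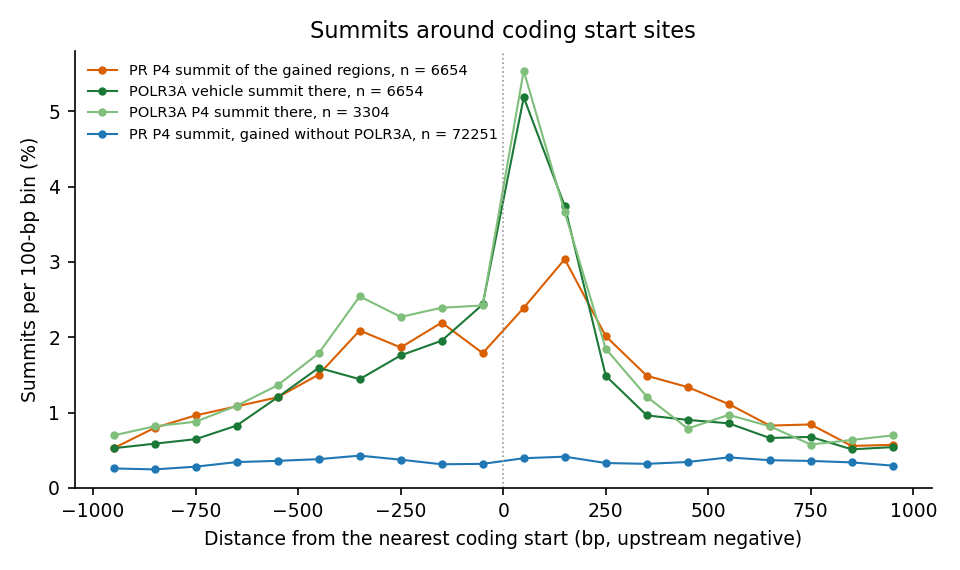
Percentage of summits per 100 bp bin (y axis) by distance from the nearest protein-coding start (x axis, bp, upstream negative) for the PR P4, POLR3A vehicle and POLR3A P4 summits of gained PR regions at POLR3A and for PR summits gained without POLR3A, with no error drawn. Both POLR3A lines peak in the first 100 bp after the start at 5.18% and 5.54%, the PR line peaks lower and farther in at 3.04%, and the line for PR gained without POLR3A is flat.

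Motif letters were counted in 1282 RefSeq promoter windows, each 250 bases before to 50 after a start, that members overlapped, from 1129 genes. Both strands were searched with overlaps allowed, and the same count over all 22012 windows is the background. The windows of members had a median GC content of 64.0% and a median of 26 CpG, against 62.3% and 21 over all windows. CCGGAAG, an ETS family core, stood in 26.1% (23.8 to 28.6) of member windows and 12.8% of all windows. It stood in 21.1% (19.0 to 23.3) of 1339 windows with POLR3A in vehicle and no PR, 16.5% (14.8 to 18.3) of 1767 windows with PR gained without POLR3A and 27.7% of 733 windows with PR under both treatments and POLR3A. GGGCGG, an Sp1 core, stood in 66.9% of member windows, 75.1% of POLR3A windows without PR and 56.3% of all. CCAAT, the NFY core, stood in 37.1%, 37.5% and 34.7% in the same order, with overlapping intervals between the first and second.

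The letters of a hormone response element were rare in these promoters. The full palindromic progesterone response element stood in 1 of 1282 member windows, or 0.078%, and in 0.29% of all windows, and its single arm AGAACA stood in 8.35% (6.95 to 9.99) against 11.8%. Windows with POLR3A in vehicle and no PR had similarly low shares, at 0.075% for the full element and 7.77% (6.45 to 9.32) for its arm. The GATA, AP-1 and forkhead cores were also less frequent than in all windows or close to them, while the AP-2 core was more frequent. The GATA factor core AGATAA stood in 4.76% against 7.90%, the AP-1 core TGANTCA in 3.67% against 6.16%, and the forkhead core TGTTTAC in 2.73% against 2.86%. In the POLR3A windows without PR these cores stood in 2.91%, 2.17% and 1.87%. Of the other motifs, GCCNNNGGC (AP-2) stood in 31.2% against 27.4%, the NRF1 palindrome in 2.57% against 1.49%, the E-box CACGTG in 9.13% against 8.32%, and TATAAA, the core of the box bound by TBP, in 5.23% against 9.49%. GTTCGANTC, the B box of tRNA genes, stood in 0.47% against 0.29%, and a CTCF core in 11.4% against 11.8%. A match is a description of letters and not a bound site, and the part of GC content in these differences was not tested.

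**Figure D5:**
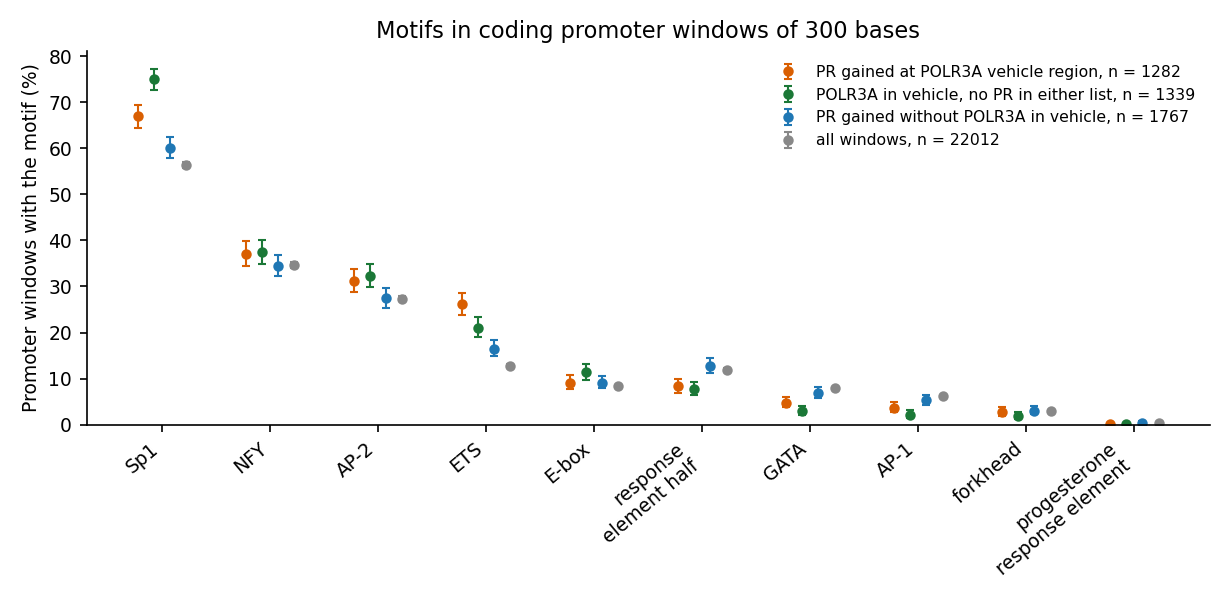
Percentage of 300-base coding promoter windows that hold each motif (y axis) for 10 motifs (x axis), in windows overlapped by gained PR regions at POLR3A, windows with POLR3A in vehicle and no PR, windows with PR gained without POLR3A, and all windows, with 95% Wilson intervals as bars. The ETS core reaches 26.1% in the first class against 12.8% of all windows, while the progesterone response element is near 0 in every class.

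The strongest gained PR regions at POLR3A were mostly over weak POLR3A regions. After FAM219B, described above, and a region on chromosome 8 that is not described here, the third was chr3:50316994-50317586, 5550 bp downstream of the start of HYAL2, a hyaluronidase, with a PR −log10 q of 59.3 over a POLR3A region of 1.90. The fourth, chr4:127780787-127781506, had its summit 550 bp upstream of HSPA4L, a heat shock protein of the HSP110 family, with 58.1 over 1.90. TOB1, an antiproliferative regulator of mRNA decay, was the exception, with a PR −log10 q of 57.5 at chr17:50866438-50866936 and POLR3A values of 10.1 in vehicle and 7.19 under P4. Its summit was inside the annotated TOB1 gene, 296 bp upstream of the nearest TOB1 start and 29 bp from the start of the noncoding RNA TOB1-AS1. It was 539 bp from the POLR3A summit.

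The other 5 of the 10 strongest had POLR3A vehicle values between 2.08 and 4.89. The region at chr22:12097413-12097966 (PR 47.05) was 150 bp from the start of the noncoding RNA LOC107987323. NECTIN2, a cell adhesion receptor, had 44.6 at chr19:44845084-44846012, with POLR3A at 2.18 in vehicle and 4.31 under P4. POLR3A was likewise in both lists in the body of ANKRD11, a chromatin regulator, at chr16:89384113-89384801, with PR at 41.7 and POLR3A at 2.08 and 2.99. The regions 10467 bp upstream of RIOK2 (PR 44.3) and 7997 bp downstream of the IRF2BP1 start (PR 43.4) had no POLR3A region under P4.

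The strongest POLR3A regions among the members were RNA polymerase III genes with modest PR. The first was TRL-CAG2-1, a leucine tRNA gene (chr16:57299951-57300033), with POLR3A −log10 q values of 621.0 in vehicle and 560.3 under P4 and PR at 3.36. The second was RN7SK, the 7SK RNA that holds back the elongation factor P-TEFb, with 616.5, 586.3 and PR at 6.53. The threonine tRNA gene TRT-AGT2-1 followed with 595.2, 591.9 and PR at 3.96. The aspartate tRNA gene TRD-GTC2-9 had 594.9, 567.6 and PR at 6.04, and the leucine tRNA gene TRL-CAA1-1 had 592.3, 550.8 and PR at 1.73. In these last 2 the gained PR region was 34 bp from a PR region of the vehicle list.

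Of 429 nuclear tRNA genes, 55 had a gained PR region at POLR3A within 100 bp, or 12.8%, in 54 regions. The count was 11 genes with the PR lists cut to equal length, 7 with all lists cut to the shortest and 30 at a reciprocal overlap of 50%. POLR3A was called in vehicle at 353 of the 429, and at 298 of them with no PR in vehicle. Of the PR-free POLR3A regions at tRNA genes, 53 of 239 gained PR under P4 (22.2%, chromosome 8 left out). Over all PR-free POLR3A regions the share was higher, at 33.3%. All 54 regions had POLR3A under P4. With chromosome 8 left out, so did 172 of 185 POLR3A vehicle regions at tRNA genes with no PR in either list. The median PR −log10 q of the 54 gained PR regions was 4.72, with a range of 1.43 to 15.3, and the median POLR3A values of their genes were 513.0 in vehicle and 527.0 under P4. Of the 55 genes, 4 also had a PR vehicle region elsewhere at the gene.

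PR summits at tRNA genes lay beside the gene more often than on it. The median distance from the gene midpoint was 181 bp for PR and 22 bp for the POLR3A vehicle summit, and 12 PR summits were within 100 bp. The 6 genes with the highest PR were TRS-TGA1-1 (serine) at 15.3, TRX-CAT1-8 at 14.9, TRC-GCA4-1 (cysteine) at 14.2, TRR-CCT4-1 (arginine) at 13.1, TRC-GCA2-3 (cysteine) at 9.53 and TRE-CTC1-6 (glutamate) at 9.17. For TRR-CCT4-1 the PR summit was 748 bp from the gene midpoint and 147 bp from a start of the coding gene FMC1-LUC7L2. For TRC-GCA2-3 the PR summit was 826 bp from the midpoint, and the region lay 91 bp from a PR region of the vehicle list. At TRS-TGA1-1, chr10:67764503-67764584, the PR summit was 369 bp and the POLR3A summit 17 bp from the midpoint, with POLR3A at 489.6 in vehicle and 436.7 under P4. At TRC-GCA4-1, chr17:38869292-38869363, they were 322 bp and 37 bp away, and POLR3A had 449.0 and 504.9. The lowest POLR3A value of the 55 was at TRE-TTC3-1 on chromosome 1, with 1.48 in vehicle and 2.64 under P4, where PR had 1.43.

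Other genes made by RNA polymerase III were met too. Of 20 listed genes (7SK, 7SL, U6, Y and vault RNAs, RNase P and MRP RNAs and BC200), 12 had a gained PR region at POLR3A within 1 kb, against 9.5% of all 58414 gene symbols. The rule requires POLR3A, which was called in vehicle within 1 kb of 19 of the 20 and of 13641 of all. With a PR-free POLR3A region within 1 kb, 12 of 15 gained PR there, against 45.6% of 11471 over all genes. RNY1, a Y RNA, had PR at 9.17 with POLR3A at 261.8 in vehicle and 312.1 under P4, and the summits lay 8 bp apart. RNU6-2, a U6 gene, had PR at 8.14 with POLR3A at 497.1 and 550.4. RNU6ATAC had PR at 7.57 with POLR3A at 6.49 and 9.41, in a region beside the gene. Of 12 spliceosomal RNA genes read by RNA polymerase II, 3 were met. POLR3A was called in vehicle within 1 kb of all 12, and 3 of the 4 with a PR-free POLR3A region gained PR there. At RNU4ATAC PR had 5.67 and POLR3A 13.5 and 10.3. Beside RNU1-1, a U1 copy, PR had 4.32, and POLR3A had 6.86 in vehicle and 135.7 under P4; U1 copies are near identical, so reads may be shared among them.

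Over all 19821 coding genes, 19.4% had one within 1 kb of the gene body, and 10.7% of the 15812 genes with a start site had one within 500 bp of a start. Of 3152 coding genes with POLR3A and no PR in vehicle within 500 bp of a start, 1583, or 50.2%, gained PR on that POLR3A region. Longer genes have more room for a region, and length was not tested. Of 84 ribosomal protein genes, 40 had one within 1 kb, and 23 of the 67 with a start site, or 34.3% (24.1 to 46.3), had one at the start. Read against PR-free POLR3A at the start, 22 of 38 gained PR, a share near the 50.2% of all coding genes. RPL22L1, a paralog of a large subunit protein, had PR at 11.4 and POLR3A at 11.3 in vehicle and 14.5 under P4. At RPLP0, of the ribosomal stalk, these were 10.9, 12.7 and 13.7, just past RPL13A 10.5, 6.74 and 3.17, and at RPS24, of the small subunit, 10.3, 10.2 and 6.73 with both summits at the same base. Ribosomal protein genes have many processed pseudogenes, so reads at their exons may be shared.

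Of 20 cytosolic aminoacyl-tRNA synthetase genes, which load amino acids onto tRNAs, 8 had a gained PR region at POLR3A within 1 kb, and 6 of 16 had one at the start. Of the 5 with POLR3A and no PR in vehicle at the start, 4 gained PR there. Over all coding genes the shares were 19.4% within 1 kb and 10.7% at the start. With PR-free POLR3A at the start it was 50.2%, and a difference over so few genes was not tested. HARS1, the histidine enzyme, shares its promoter with HARS2 and had PR at 14.5 over POLR3A at 4.89, with none under P4. MARS1 (methionine) had PR at 5.57 and POLR3A at 7.17 and 6.53, and the shared length was 11 bp. WARS1 (tryptophan) had 3.54 over 2.27 and 3.40, and EPRS1 (glutamate and proline) had 3.54 over 2.76 with none under P4.

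Of 31 genes for subunits and factors of RNA polymerase III, 14 had one within 1 kb, and 7 of 24 had one at the start. GTF3C3, a subunit of the factor TFIIIC that binds tRNA genes, had PR at 6.65 and POLR3A at 4.19 in vehicle and 5.63 under P4, with summits 13 bp apart and the PR summit 52 bp from the start. The POLR3A gene itself had 2, the stronger at chr10:78027974-78028410, 1457 bp into the gene, with PR at 4.59 over POLR3A at 2.98 and none under P4. TBP, the TATA-binding protein used by all nuclear polymerases, had 4.59 over 3.53, and BRF1, a TFIIIB subunit, had 4.47 over 2.53, both with no POLR3A under P4. The BRF1 region lay in the gene body, 31982 bp from the nearest BRF1 start and 93 bp from a PR region of the vehicle list. Of the 9 of these genes with POLR3A and no PR in vehicle at the start, 6 gained PR there. Over all coding genes the shares were 19.4% within 1 kb and 10.7% at the start. With PR-free POLR3A at the start it was 50.2%, and a difference over so few genes was not tested.

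Of 74 histone genes, 26 had a gained PR region at POLR3A within 1 kb, and 18 of 67, or 26.9% (17.7 to 38.5), had one at the start. Of the 19 with POLR3A and no PR in vehicle at the start, 13 gained PR there, or 68.4%. Over all coding genes the shares were 19.4% within 1 kb and 10.7% at the start. With PR-free POLR3A at the start it was 50.2%, and the difference was not tested. H3C14 had PR at 8.77 and POLR3A at 18.2 in vehicle and 20.4 under P4, and H2BC21 had 6.71 over 3.50 with none under P4. H4C1 and H3C1 share a region with PR at 6.23 and POLR3A at 5.63 and 6.70. Clustered histone genes are near copies of each other, and their values may share reads.

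Of 20 listed PR target genes, 6 had a gained PR region at POLR3A within 1 kb of the body (30%, against 19.4% of all coding genes). At the start, 0 of the 14 with a start site had one (upper Wilson limit 21.5%, which includes the 10.7% of all coding genes). Of 2 with POLR3A and no PR in vehicle at the start, 1 gained PR on that POLR3A region. PRLR, the prolactin receptor, had 9, the strongest at chr5:35226625-35227320, with PR at 23.1, POLR3A at 2.68 and 4.31, and the summit 3586 bp from the start. ZBTB16, a transcriptional repressor, had PR at 4.63 over POLR3A at 3.21, CCND1, the G1 cyclin, 4.40 over 6.88, and GREB1 3.36 over 2.38, each with no POLR3A under P4. Of 15 luminal transcription factor genes, 4 were met and 0 of 11 starts (upper limit 25.9%, again above 10.7%). Of the 2 with POLR3A and no PR in vehicle at the start, 0 gained PR on that POLR3A region. TFAP2A had 5.53 over 4.06, SPDEF 3.36 over 2.20 and GATA3 3.10 over 7.97. The GATA3 region lay 59 bp from a PR region of the vehicle list.

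Other lists are read against the same 19.4% and 10.7% of all coding genes. With POLR3A and no PR in vehicle at the start, 50.2% of all coding genes gained PR on that POLR3A region. So did 1 of 3 AP-1, 3 of 4 cell cycle, 2 of 3 coregulator and 1 of 2 clock genes. Differences over so few genes were not tested. Among 9 AP-1 genes 4 had a gained PR region at POLR3A within 1 kb (44.4%), and 1 of 8 had one at the start. The strongest were ATF3, with PR at 10.8 and POLR3A at 7.05 and 4.93, and FOSB, with 8.92 and 3.53 and 5.63. Among 15 cell cycle genes 7 had one (46.7%), and 2 of 9 at the start. E2F1, the S phase activator, had PR at 9.84 and POLR3A at 3.60 and 4.44. CDK4, the G1 kinase, had 7.16 and 1.68 and 3.99, and its region lay 32 bp from a PR region of the vehicle list. Among 15 coregulator genes 4 had a gained PR region at POLR3A within 1 kb (26.7%), near the share of all coding genes. At the start 1 of 13 had one. MED1, a Mediator subunit, was among the 4, with PR at 3.96 over POLR3A at 2.26 and none under P4. Among 13 clock genes 3 had one (23.1%), also near that share, and 1 of 13 at the start. The 3 were DBP with 14.9 and 2.38 and 2.21, PER2 with 5.39 and 7.87 and 1.88, and NR1D1 with 2.19 and 4.71 and 2.84. The members and lists were picked with results of these data known, and the counts describe these lists only.

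Gained PR regions at POLR3A lay closer to PR regions of vehicle-treated cells than other gained regions did. The median gap was 3242 bp, against 9620.5 bp for gained regions without POLR3A, and 31.2% (30.1 to 32.3) against 12.7% lay within 1 kb. They also had a median of 4 other PR P4 regions within 10 kb, against 2. POLR3A under P4 was more frequent near PR vehicle regions in both classes, and the share in members was higher at every distance. The classes differ in POLR3A in vehicle by the rule, so this difference is a description. Up to 1 kb the shares were 56.1% in members and 22.4% in gained regions without POLR3A, from 1 to 10 kb 47.4% and 13.8%, from 10 to 100 kb 46.5% and 8.42%, and beyond 100 kb 46.3% and 5.09%.

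Members were found on every chromosome examined. They made up between 5.05% of gained PR regions on chromosome 18 (3.88 to 6.54) and 11.2% on chromosome 19 (10.1 to 12.5). The share of PR-free POLR3A regions that gained PR ran from 24.8% on chromosome 22 to 37.2% on chromosome 8. POLR3A was called under P4 at 32.1% of the 53 members on chromosome 18 and at 57.6% of the 245 on chromosome 6.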

How the data were processed

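PR and POLR3A ChIP-seq regions of T47D cells were compared by position, with groups taken from the sample titles. Per the submitters' processing notes, cutadapt, Bowtie2, MACS2 and hg38 were used. Parameters, the control for each list and how replicates were combined are not given in the sources used here. The deposited lists give each region's fold enrichment (a ratio) and −log10 q as the authors' peak caller wrote them; the highest q in any list was 0.0497. The score column deposited by the authors was not used.

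Regions on chromosomes 1 to 22 and X were overlapped at 1 bp or more in Python 3.11.15 (numpy 2.4.6, pandas 2.3.3), and the count was checked against bedtools 2.31.1. Where several POLR3A regions met a member, the one sharing the most bases gave its values. Genes came from RefSeq GRCh38.p14, with 58419 genes used and 679 left out because they stood outside the order of positions along their chromosome. Start sites and promoter windows came from RefSeq and hold none on chromosome 8. Shares have 95% Wilson intervals, which cover counting error only; depth is unknown. With 1 list per group no test across samples was made. Overlap code was tested on simulated data.

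Named regions were the 10 members highest in PR, the 5 highest in POLR3A, the 6 tRNA genes highest in PR, up to 4 genes per list by PR, and 3 regions on each side of the overlap limit. The members and lists were chosen with earlier results of these data known. Alternatives changed overlap, thresholds, list length and windows. Results for 2 of the listed genes are not reported here.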

Additional observations from a re-analysis of the deposited data

Results flagged for a closer look

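Outside chromosomes 1 to 22 and X, on chromosome Y and unplaced sequences that the comparisons leave out, 121 of 1019 PR P4 regions overlapped a POLR3A vehicle region and no PR vehicle region. That is 11.9% (95% Wilson interval 10.0 to 14.0), against 6.29% on chromosomes 1 to 22 and X, and the difference was not tested. The values are those the rule selects on, so the count is a description. Of the 121, 63 had a POLR3A region under P4, and the median PR −log10 q of the 121 was 5.58.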

How the results depend on the processing

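The 3 class differences held their direction under every setting that changed the overlap, threshold, list length or POLR3A width: members had POLR3A under P4 more often than gained PR regions without POLR3A in vehicle, lay near gene ends more often, and POLR3A regions that gained PR had POLR3A under P4 more often than those that did not. The first sets regions chosen for POLR3A in vehicle beside regions chosen for its absence, so it is a description. The sizes of the differences moved, and the cause was not tested. The values below are, in order, the number of members (7012), the share of PR-free POLR3A regions that gained PR (33.3%), the share of members with POLR3A under P4 (49.8%), the share within 1 kb of a coding gene end (34.0%) and the tRNA genes met (55). A reciprocal overlap of 50% gave 4292, 17.0%, 35.8%, 31.0% and 30. A −log10 q of at least 5 in every list gave 1526, 29.6%, 47.4% and 38.0%, and at least 10 gave 299, 21.3%, 63.5%, 23.1% and 22, with a median summit distance of 40 bp in place of 123 bp. PR lists cut to the 38933 highest regions gave 1154, 5.78%, 60.8%, 35.4% and 11, and all lists cut to 29161 gave 765, 3.64%, 52.2% and 7 tRNA genes. With no PR vehicle region within 1 kb the 3 shares were 31.1%, 46.997% and 32.9%. With the PR summit inside the POLR3A region there were 4576 members and shares of 21.7%, 51.7% and 32.3%. Chosen after seeing the data, POLR3A regions of 100 bp on either side of the summit gave 29.6%, 44.8% and 32.6%, and a −log10 q of at least 5 in every list but PR vehicle gave 877, 21.4%, 44.0%, 36.3% and 25. Gene ends within 250 bp held 20.8% of members and within 5 kb 49.6%, where the other classes were not compared. The tRNA gene body alone gave 35 genes and 500 bp on either side 83. So the number of members and the share of POLR3A regions that gained PR depend on the length of the PR P4 list: at equal list length 5.78% gained PR. No paired analysis was possible because each group has 1 list and no replicate values. Leaving out a replicate could not be run for the same reason, and depth, which is unknown, limits every statement on gain.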
